A study of Drosophila melanogaster with 2 samples.

Results

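Extra macrochaetae (emc) fused to eGFP was found at 444 reproducible peaks whose summit lay within 500 bp of annotated starts of 2 or more different protein-coding genes. These peaks, called paired-promoter peaks here, were 23.8% (21.9 to 25.8) of the 1865 peaks on chromosomes 2L, 2R, 3L, 3R, 4 and X in the authors' reproducible list for the dm6 build, which was filtered by irreproducible discovery rate (IDR). Another 644 IDR peaks (34.5%) lay within 500 bp of a start of exactly 1 protein-coding gene and are called single-gene promoter peaks, and 777 lay farther from every such start. Within the IDR list the rule used only the position of the summit and the annotation. The list itself was a selection on signal, since it coincided with the strongest 1865 peaks of the pooled list, all at or above a signal of 62.7. Chromatin was immunoprecipitated with an antibody against GFP from whole embryos of a transgenic line that stably expresses emc with GFP at its C-terminus, at an age of 0 to 24 h and with both sexes pooled. The 2 samples, biological replicates 1 and 3, form 1 group, and the control library was not analysed here. With 1 group of 2 replicates no test between groups was possible, so main shares and ratios carry exact 95% intervals. Several are also given in each replicate alone. Values by chromosome and by gene list are from the IDR list only, and gene-list shares have no intervals. The intervals cover counting error only, and peaks, genes and pairs are not replicates. In whole embryos a signal cannot be assigned to a cell type or a stage. The promoter that drives the fusion is not given in the sources used here.

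A divergent gene pair consists of neighbours on opposite strands that are transcribed away from each other, so that their starts share a short stretch of upstream sequence. Such pairs are common in the compact fly genome, and many of them encode proteins that most cells need. The emc protein is a helix-loop-helix factor without the basic region that touches DNA. It is known for binding bHLH proteins such as Daughterless and keeping them from the E-box.

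The sequence between the starts of 5 of the strongest divergent members is shown because it is the stretch that both genes share and, in 4 of the 5, holds the summit. They are written 5′ to 3′ on the forward strand of Release 6 (dm6), from the start of the minus-strand gene, named before the slash, to the start of the plus-strand gene. Capitals mark the replication-related element DRE (TATCGATA) and the E-box (CANNTG) on either strand.
Art3/mRpS10, chr3R:15229408-15229665: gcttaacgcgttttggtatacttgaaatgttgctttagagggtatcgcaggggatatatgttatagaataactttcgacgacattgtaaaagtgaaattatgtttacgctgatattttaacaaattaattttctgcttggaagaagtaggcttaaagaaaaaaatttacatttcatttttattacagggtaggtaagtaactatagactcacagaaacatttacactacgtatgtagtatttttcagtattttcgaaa
Atat/Shc, chr3L:9426758-9427010: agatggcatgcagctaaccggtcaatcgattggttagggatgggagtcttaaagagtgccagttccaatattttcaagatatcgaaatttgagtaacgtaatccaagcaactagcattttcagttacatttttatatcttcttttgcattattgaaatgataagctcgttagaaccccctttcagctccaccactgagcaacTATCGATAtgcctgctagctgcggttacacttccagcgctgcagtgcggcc
Tcs5/CHMP2B, chr3L:5139395-5139619: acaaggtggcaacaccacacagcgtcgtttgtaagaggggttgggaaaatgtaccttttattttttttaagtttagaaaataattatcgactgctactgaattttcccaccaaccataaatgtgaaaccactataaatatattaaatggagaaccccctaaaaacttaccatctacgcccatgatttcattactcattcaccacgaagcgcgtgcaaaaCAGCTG
RpS27/Nup37, chr3R:25247514-25247658: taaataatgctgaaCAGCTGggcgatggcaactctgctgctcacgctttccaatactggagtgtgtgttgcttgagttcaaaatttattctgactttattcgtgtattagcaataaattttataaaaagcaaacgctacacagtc
Ripalpha/RpL7, chr2L:10200974-10201004: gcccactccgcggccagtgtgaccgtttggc
The summits lay at base 110 of 258 between Art3 and mRpS10, base 135 of 253 between Atat and Shc, base 94 of 225 between Tcs5 and CHMP2B and base 17 of 145 between RpS27 and Nup37. That of the 31 bp stretch between Ripalpha and RpL7 fell beyond it, 27 bp inside RpL7. Atat/Shc held 1 DRE and no E-box, Tcs5/CHMP2B and RpS27/Nup37 held 1 E-box each, and Art3/mRpS10 held neither. The short stretch at RpL7 held a match to the M1BP motif and was 71.0% GC, against 30.2% between Art3 and mRpS10.

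Most members stood at divergent pairs. Of 444, 410 (92.3%, 89.5 to 94.6) had a divergent pair as the 2 nearest genes, 26 had 2 genes on the same strand and 8 had facing genes, whose transcripts overlap at their 5′ ends. Of the 3520 pairs of protein-coding genes annotated with starts within 1000 bp of each other, 2615 were divergent. With replicate 1 or replicate 3 alone (the 1865 top-ranked peaks of each) the divergent share was 91.9% and 92.3%. In 21 of the 26 same-strand members both genes were annotated with the identical start, as for Sesn, which encodes Sestrin, and CG46429 (signal 281). The 8 facing members reached a signal of 221 at Adck1 and CG4741, 160 at mAcon1 (mitochondrial aconitase) and CG43345 and 137 at Gcn5, a histone acetyltransferase, and ver. In all, 420 members had 2 genes within 500 bp, 19 had 3, 3 had 4 and 1 had 5. The remaining member lay among starts of 10 genes of the pre-mod(mdg4) set (signal 143). The 444 peaks touched 891 genes in 428 different nearest pairs. A non-coding RNA start lay within 500 bp of 8 members, 1.80%, and of 37 single-gene promoter peaks, 5.75%. The share over all promoters of either kind is not given, so these shares are not read as a trait of members.

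The starts of divergent members were a median of 272.5 bp apart (260 to 287, quartiles 199 and 356). Over all 2615 divergent pairs with starts within 1000 bp the median was 301 bp. The membership rule favours short spacing, because both starts must lie within 500 bp of the summit. How much this shortens the median was not tested. The closest pairs were CG3032 and CG4593 at 6 bp and SerRS (seryl-tRNA synthetase) and CG17260 at 8 bp, with signals of 82.3 and 145. The widest were CG31021 and CG2246 at 717 bp, CG3919 and stwl at 687 bp, and spidey and dpr14 at 645 bp, with signals of 86.6, 69.9 and 110. The summit lay between the starts in 341 of 410 (83.2%, 79.2 to 86.7). Where the starts were at least 100 bp apart this was 326 of 357, 91.3%, and where they were closer 15 of 53, 28.3%. The nearer start was a median of 70 bp from the summit and the farther one 202 bp. For single-gene promoter peaks the nearest start was at 146 bp (135 to 161), and the summit lay upstream of it in 86.6%. A member's nearer start is by rule chosen among more genes than that of a single-gene peak. This shortens the distance for members, by an amount that was not tested. At the edge of the 500 bp rule, the farther start was at 500 bp for Prosalpha3/dgt3 (signal 73.5) and at 495 bp for Pex16/Pex14 (116). The peaks at ecd/CG13806 (99.2) and RnrS/CG34231 (79.6) fell just outside it, at 513 and 515 bp.

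**Figure D1:**
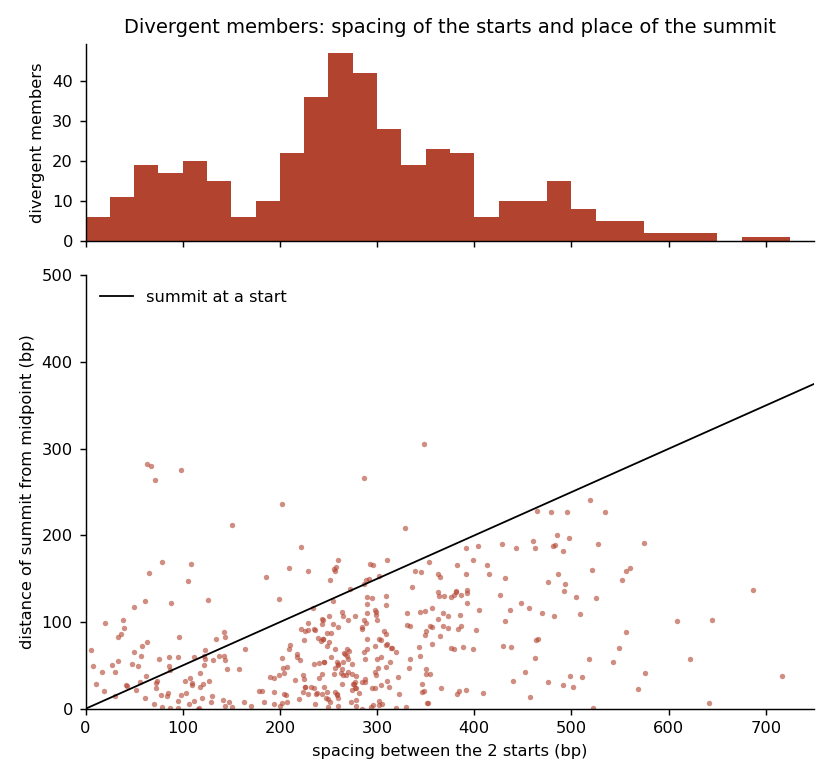
Upper panel: number of divergent members (n = 410) by the distance between the 2 starts in bp. Lower panel: each point is a member, with the distance between the starts (x, bp) and the distance of the summit from their midpoint (y, bp); points under the line lie between the starts, as 341 of 410 did.

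In all, 16 divergent pairs carried 2 members each, and in 11 of them the 2 summits were nearest to different genes. The pair RpL32 (a ribosomal protein) and CG7943 had a summit 68 bp from RpL32 with a signal of 243 and another 35 bp from CG7943 with 132. Lon, a mitochondrial protease, and PIG-F, a protein of GPI anchor synthesis, had 274 and 82.0 in the same arrangement. Brf, a subunit of the RNA polymerase III factor TFIIIB, and sds22 had 205 and 96.6. The other 8 of these 11 were Kap-alpha3/Son, AP-2alpha/ebi, Xe7/Atg17, eIF4EHP/CG18428, yem/Ctl2, CG12093/Atg2, Dhdds/RpS14a and Wdr37/koko. In CG6565/Bdp1, APP-BP1/Irbp18, eIF3h/senju, Dic1/Elp6 and Dp1/imd both summits were nearest to the same gene. In 14 of the 16 pairs the 2 peaks overlapped, had summits 199 to 216 bp apart, and matched the same peak in each replicate list. These 28 members are therefore not separate in the replicates. Over all IDR peaks, 29 members and 34 single-gene promoter peaks overlapped another IDR peak.

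Summits were several times denser in sequence near 2 starts than near 1. The sequence within 500 bp of starts of 2 or more protein-coding genes came to 1.98 Mb, 1.48% of the 6 chromosomes, and held 224 IDR summits per Mb. Sequence near exactly 1 gene (13.3 Mb) held 48.2 per Mb and the rest of the genome 6.55. The ratio of paired to single sequence was 4.64 (4.10 to 5.24), and it was 4.42 (3.90 to 5.01) in replicate 1 alone and 4.52 (3.997 to 5.11) in replicate 3 alone. Among the pooled peaks that overlapped no IDR peak the ratio was 1.62 (1.52 to 1.73). In the IDR list, 29 members and 34 single-gene promoter peaks overlapped another IDR peak and were counted as separate summits.

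The density ratio was largest close to the starts. Within 49 bp of the nearest start there were 348 summits per Mb of paired sequence against 85.3 of single sequence, a ratio of 4.08 (3.19 to 5.22). At 50 to 99 bp the ratio was 5.06 (3.92 to 6.55), at 100 to 199 bp 2.94 (2.30 to 3.73) and at 200 to 299 bp 2.01 (1.27 to 3.10). The peak interval's centre was also the summit in 89.6% of members and 88.8% of single-gene peaks, which limits the precision of these distances. Farther out the paired sequence held 3 members at 300 to 399 bp and none at 400 to 500 bp, where a ratio was not distinguishable from 1. Each replicate alone gave a ratio above 4 below 100 bp, and in replicate 1 the interval at 200 to 299 bp, 0.814 to 2.30, included 1. The ratio held on both sides of the nearest start, at 4.59 (4.01 to 5.24) upstream of it and 5.72 (4.14 to 7.89) downstream.

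**Figure D2:**
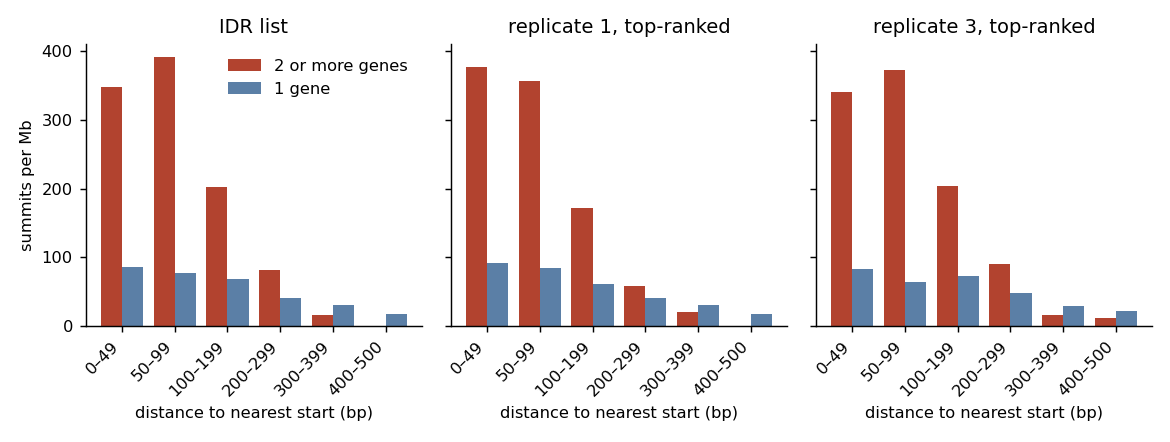
Summits per Mb (y) by distance to the nearest protein-coding start in bp (x), in sequence within 500 bp of starts of 2 or more genes and of exactly 1 gene, for the IDR list and the 1865 top-ranked peaks of each replicate. In the IDR list the paired bars stand at 348 and 391 below 100 bp, against 85.3 and 77.3 for single sequence.

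Seen from the genes, a divergent neighbour went with a higher share of occupied genes, meaning genes with a summit near a start. A summit near the starts of both genes of a pair counted for each of them, here and in the gene lists below. This raises the share of genes with a partner, by an amount that was not tested. Of all 13945 protein-coding genes, 10.6% had an IDR summit no farther than 500 bp from a start. The share was 19.5% (18.4 to 20.7) for the 4958 genes with a divergent partner starting within 1000 bp, 8.08% (6.49 to 9.92) for the 1027 with partners in other orientations alone and 5.38% (4.89 to 5.90) for the 7960 with none. Replicate 1 alone gave 18.4%, 7.59% and 5.36%, and replicate 3 alone 19.3%, 7.79% and 5.39%. Within 100 bp of a start the shares were 8.89% with a divergent partner and 1.85% with none. The groups with partners were not matched for spacing.

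Divergent pairs of intermediate spacing most often had a summit near their midpoint. Of the 3520 pairs, 14.4% had an IDR summit within 250 bp of the midpoint. A summit near the midpoints of several pairs counted for each of them, as can happen among the 10 pre-mod(mdg4) genes. Such pairs are not separate, and the intervals do not allow for this. Its effect on the shares was not tested. Among the 2615 divergent pairs it was 16.7% (15.3 to 18.2). By spacing the share was 15.3% below 100 bp, 18.6% at 100 to 199 bp, 27.5% (23.7 to 31.5) at 200 to 299 bp and 23.7% (19.5 to 28.2) at 300 to 399 bp. It was 11.2% (8.47 to 14.4) at 400 to 599 bp and 3.70% (2.17 to 5.86) at 600 to 1000 bp. Starts more than 500 bp apart lie outside the 250 bp on each side of the midpoint. Those at 400 to 599 bp, with a median spacing of 489 bp, lie near the edge of that window. The intervals at 200 to 399 bp did not overlap those beyond 400 bp, in the IDR list or in either replicate alone. The fixed window can add to the lower shares beyond 400 bp, and its part was not tested. Same-strand pairs had a summit in 7.63% (5.88 to 9.69), with 59 of their 61 occupied pairs at a spacing below 100 bp, and facing pairs in 8.57% (3.99 to 15.6). Below 100 bp the share was 15.9% of 370 same-strand, 22.2% of 36 facing and 15.3% of 417 divergent pairs, with overlapping intervals. The median spacing in this bin was 0 bp for same-strand, 30.5 bp for facing and 56 bp for divergent pairs. The orientations were thus not matched for spacing there, and pairs that share a summit are not separate. These shares therefore cannot decide whether the orientations differ. At 200 to 299 bp none of 22 facing pairs had a summit, against 27.5% of divergent pairs. Same-strand bins from 100 to 399 bp held at most 12 pairs each, too few to compare.

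**Figure D3:**
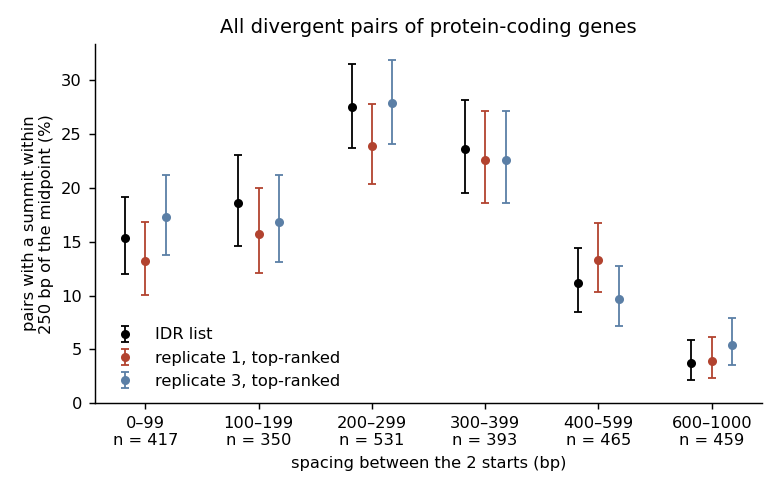
Share of all divergent protein-coding pairs (y, percent) with a summit within 250 bp of the midpoint, by spacing in bp (x), with exact 95% intervals. The IDR list and the top-ranked peaks of each replicate all stand highest at 200 to 299 bp, at 27.5%, 23.9% and 27.9%.

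The members were spread unevenly over the chromosomes. The X chromosome held 43 members among 350 IDR peaks, 12.3% (9.04 to 16.2), and the autosomes 401 among 1515, 26.5% (24.3 to 28.8). Paired sequence had 149 summits per Mb on X and 237 on the autosomes, while single sequence had 51.7 and 47.5. The ratio of paired to single sequence was thus 2.87 (1.98 to 4.11) on X and 4.98 (4.36 to 5.68) on the autosomes. Arms 2L, 2R, 3L and 3R held 88, 84, 98 and 131 members. None of the 9 IDR peaks on chromosome 4 was a member, which allows a share of up to 33.6%.

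The strongest members joined genes of quite different functions. The peak between Art3, an arginine methyltransferase, and mRpS10, a mitochondrial ribosomal protein (chr3R:15229362-15229687), had a signal of 671 in the pooled list, 282 in replicate 1 and 392 in replicate 3. The peak between Shc, an adaptor of receptor tyrosine kinases, and Atat, a tubulin acetyltransferase (chr3L:9426729-9427033), had 602, with 295 and 309 in the replicates. Signals are on the scale of the authors' peak caller and differ in scale between lists.

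Chro, a chromodomain protein, and Ssl1, a subunit of TFIIH, followed with 589 (273 and 316). Tcs5 and CHMP2B, a subunit of the ESCRT-III membrane complex, had 553 (209 and 351), and CenG1A and mRpS23 had 516 (220 and 294). The pair CG5098/CG5757 had 513 (296 and 215), and RpS27 and Nup37, a nucleoporin, had 510 (276 and 233).

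Pal1 and Pdrg1 had a pooled signal of 470, CG9147 and Fbw5, an F-box protein, 430, and RpL7 and Ripalpha 423. Mnat9/CG1792 and tank/CG12194 closed the top 12 with 382 and 380. All 12 were divergent, with spacings from 30 to 505 bp, and all ranked within the first 64 peaks of both replicate lists.

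Among IDR peaks, which all had a pooled signal of at least 62.7, signal at paired-promoter peaks was close to that at single-gene promoter peaks. Weaker peaks of either kind are not in this comparison. The median signal was 95.8 (91.0 to 100.4) at members, 97.6 (92.4 to 103) at single-gene promoter peaks and 94.2 at all IDR peaks. In replicate 1 it was 41.2 (39.6 to 44.5) against 42.1 (40.5 to 44.1), and in replicate 3 56.1 (53.6 to 59.6) against 58.9 (55.4 to 61.4). The intervals overlapped in all 3 lists. Limited to summits within 100 bp of a start, the medians were 94.7 (86.3 to 98.6) and 83.6 (80.8 to 92.4), with overlapping intervals too. Signal and spacing of the divergent members had a Spearman rho of -0.06 over 410 peaks of 1 pooled list, given as a description. Medians by spacing lay between 89.5 at 100 to 199 bp and 98.9 at 200 to 299 bp.

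**Figure D4:**
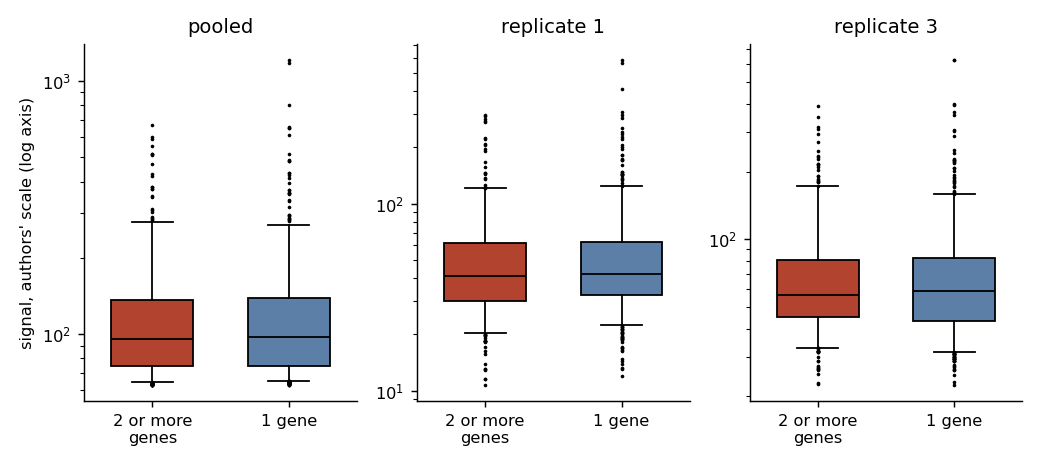
Signal on the authors' scale (y, log axis) of members and single-gene promoter peaks in the pooled list and in each replicate list. Boxes span the quartiles with the median as a line, whiskers the 5th to 95th percentile, and points lie beyond; pooled medians are 95.8 and 97.6.

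The replicates shared nearly every member, in lists from which the IDR peaks had themselves been selected. A replicate 3 peak overlapped all 444 and a replicate 1 peak 441, so 99.3% (98.0 to 99.9) were in both lists, against 639 of 644 single-gene promoter peaks, 99.2%. The 3 absent from the replicate 1 list were CG5846/CG4658, CG34150/lili and CG6805/NiPp1, with replicate 3 signals of 70.5, 64.3 and 52.0. Among the 1865 top-ranked peaks of each list, 80.6% (76.6 to 84.2) of members were in replicate 1 and 87.4% (83.9 to 90.3) in replicate 3. Single-gene promoter peaks had 85.9% and 84.6%. Both replicates ranked 70.7% (66.2 to 74.9) of members this high, against 72.4% (68.7 to 75.8). Over the members, replicate signals had a Spearman rho of 0.65 (n = 441), and over single-gene promoter peaks 0.66 (n = 639), within a range of signal that the IDR threshold had selected.

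The largest differences in rank ran one way. COX7B/Sec3, or/CG34213, CG7083/Prim1, CG8032/p and CG4101/Su(P) ranked 18367 to 29659 in replicate 1 and 841 to 1225 in replicate 3. COX7B, a subunit of cytochrome c oxidase, and Sec3, of the exocyst, had a signal of 10.7 in replicate 1 and 53.0 in replicate 3. The pooled signals of the 5 were 63.7 to 77.9, below the IDR median of 94.2.

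Pooled peaks at paired promoters were more often among the strongest, which are the IDR list. Over the whole pooled list 6.34% of peaks were in it. At paired promoters it was 444 of 1749, 25.4% (23.4 to 27.5), against 11.04% (10.3 to 11.9) at single-gene promoters and 3.56% elsewhere. The same selection seen by rank gave paired promoters 23.8% of the first 1865 pooled peaks, 17.0% of the next 1865, and 2.48% of those ranked beyond 14920. The replicate lists fell in the same order, from 22.5% to 2.23% in replicate 1 and from 23.5% to 2.86% in replicate 3. Within the IDR list the share was 28% (19.5 to 37.9) of the first 100, 25.3% (21.1 to 29.8) of the next 400, 23.2% (19.6 to 27.2) of the following 500 and 23.0% (20.2 to 26.0) beyond, with overlapping intervals.

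Genes of cytoplasmic ribosomal proteins were the most frequent of the 16 gene lists apart from genes with a CG number as their only name. They took part in 30 members and 30 single-gene promoter peaks, and 57 of the 86 listed genes were occupied, 66.3%, against 10.6% of all protein-coding genes. With a divergent partner it was 39 of 53 and without one 18 of 33. None of the 30 members joined 2 genes of the list, and they held 28 of its genes. RpL32/CG7943 and RpS14a/Dhdds gave 2 members each, which overlapped and matched the same peak in each replicate list. The summit was nearer to the ribosomal protein gene in 23 of 30 and to its partner in 6, at medians of 46.5 and 218.5 bp. Besides RpS27 and RpL7, the strongest was RpL14 with Nelf-E, a subunit of the elongation factor NELF (signal 266, with 121 and 145 in the replicates). The median signal of the 30 was 145, against 95.8 over all members. Similar gene copies such as RpS14a and RpS14b can share reads, which makes the 2 peaks at RpS14a and Dhdds uncertain.

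Genes for mitochondrial proteins were counted at more members than single-gene promoter peaks. Mitochondrial ribosomal protein genes took part in 11 members and 1 single-gene promoter peak. All 12 occupied genes were among the 59 of 75 with a divergent partner, and none of the other 16 was. Their share of 20.3% was near the 19.5% of all genes with a divergent partner. Besides mRpS10 and mRpS23, the strongest was mRpL23 with CG9004 (350, with 125 and 235 in the replicates). Oxidative phosphorylation genes took part in 13 members and 1 single-gene peak. Of the 91 listed, 15.4% were occupied, against 10.6% of all protein-coding genes. It was 12 of 44 (27.3%) with a divergent partner and 2 of 47 (4.26%) among the others. Over all genes it was 19.5% with a divergent partner, 8.08% with other partners alone and 5.38% with none. For oxidative phosphorylation genes the summit was nearer to the listed gene in 7 of 12 and to the partner in 4. For mitochondrial ribosomal proteins it was 4 and 6 of 10. ND-ASHI, a complex I subunit, stood opposite Fum1, the fumarase (signal 180), and ND-MWFE opposite TppII (179).

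Other lists of housekeeping function followed with smaller numbers. RNA polymerase and basal transcription genes took part in 10 members and 4 single-gene peaks, among them Rev1/MED30 (signal 187), CG11247/Polr2H (180) and elm/MED27 (166). Translation factors had 8 and 5, with RpL28/eIF1 on top (193). Aminoacyl-tRNA synthetases had 6 members and no single-gene peak, with SerRS/CG17260 (145) and AP-1sigma/GluProRS (137) ahead. Vesicle traffic genes had 6 members, led by Vps33B/Fur1 (288), proteasome subunits 4, led by Hat1/Rpn5 (113), DNA replication 3, led by CG10366/PCNA2 (94.5), and nuclear pore 3, led by RpS27/Nup37. Spliceosome genes had 2, led by mthl1/SNRPG (119), and mitochondrial import 2, in neither of which the listed gene was among the nearest 2. Of the 4958 genes with a divergent partner 19.5% were occupied, and in these lists it was 2 of 25 for spliceosome, 3 of 23 for DNA replication, 4 of 24 for proteasome and 3 of 18 for nuclear pore. It was 10 of 54 for RNA polymerase and basal transcription, 6 of 32 for vesicle traffic, 6 of 23 for tRNA synthetases, 9 of 26 for translation factors and 2 of 5 for mitochondrial import.

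The chemoreceptor and cuticle lists gave no members. None of 180 chemoreceptor genes and none of 70 cuticle genes were occupied, and 25 and 4 of these had a divergent partner. Over all protein-coding genes 10.6% were occupied, at 19.5% with a divergent partner and 5.38% with no partner. Of 50 emc and bHLH genes, 2 took part in members, crp with pkaap (signal 151) and bigmax with Hmu (147), and 5 in single-gene peaks. In all 7 of the 50 were occupied, 14%, beside the 10.6% of all genes. With a divergent partner it was 4 of 13, 30.8%, beside 19.5%, on few genes. Genes known only by a CG number were in 229 members, in 40 of them on both sides. They were 31.0% of the genes at members, and 7.04% of the 6097 were occupied, below the 10.6% of all protein-coding genes.

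**Figure D5:**
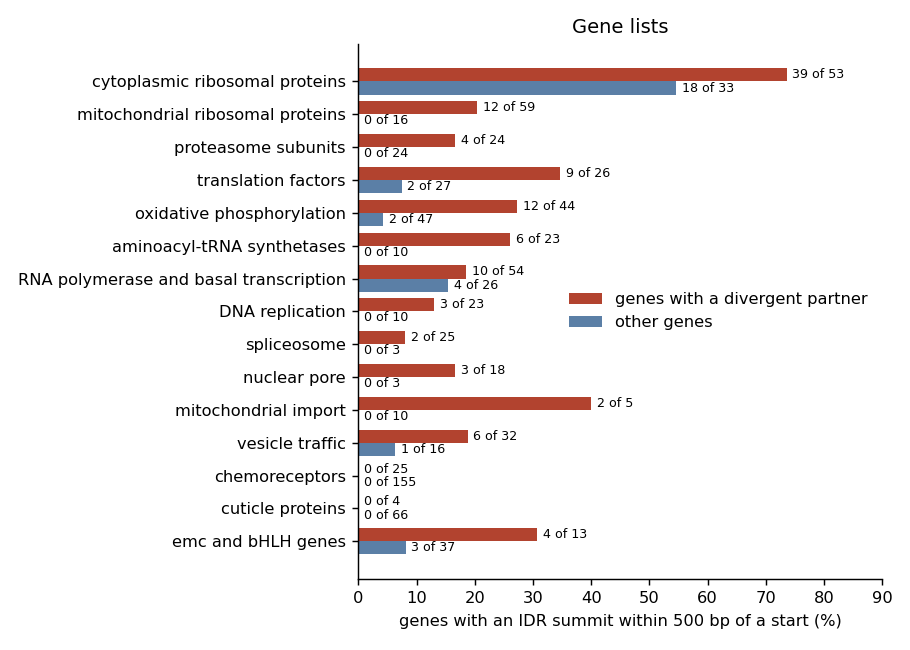
Share of the genes of 15 lists (x, percent) that were occupied by an IDR summit, at most 500 bp from a start, for genes with a divergent partner within 1000 bp and for the others, with counts at the bars. Cytoplasmic ribosomal protein genes are high in both, at 39 of 53 and 18 of 33, and mitochondrial ribosomal protein genes at 12 of 59 and 0 of 16.

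The DRE, the site of the factor DREF, was found at more members than single-gene promoter peaks. In windows of 100 bp on each side of the summit it was in 57 of 444 members, 12.8% (9.87 to 16.3), and in 39 of 644 single-gene peaks, 6.06% (4.34 to 8.19). Replicate 1 alone gave 12.1% and 6.42% and replicate 3 alone 11.4% and 5.97%. In like windows at the starts of all 13945 genes it was 7.84%, and at the midpoints of all divergent pairs 8.57%. Midpoints of pairs with an IDR summit held it in 7.32% (5.06 to 10.2) and those without in 8.82% (7.66 to 10.1). Summits of members lay closer to a start, with 68.5% within 100 bp against 35.9%. The membership rule itself favours this, because a member's nearest start is chosen among more genes. How much of the difference it makes was not tested. Limited to those, the DRE shares were 15.8% (11.9 to 20.4) and 12.1% (8.21 to 17.0), with overlapping intervals. The median signal of members with a DRE was 88.5 (75.9 to 98.9) and without one 97.4 (92.4 to 104). After Shc/Atat, the strongest with a DRE were RpL41/NaCP60E (244), GCS2beta/CG5131 (225), RpS25/CG4820 (194) and RpL28/eIF1 (193).

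The GAGA motif (GAGAG) went the other way. It was in 14.6% (11.5 to 18.3) of members and 25.6% (22.3 to 29.2) of single-gene promoter peaks, against 22.5% at all starts and 14.4% (13.1 to 15.8) at the midpoints of all divergent pairs. Replicate 1 alone gave 14.0% and 24.3%, and replicate 3 alone 13.9% and 27.1%. Within 100 bp of a start the shares were 13.8% (10.1 to 18.2) and 19.9% (15.0 to 25.7), with overlapping intervals. The E-box CANNTG was in 63.7% (59.1 to 68.2) of members, 61.6% of single-gene peaks and 63.7% of all starts, and its form CACGTG in 16 members and 20 single-gene peaks. The TATA box was in 43.7% (39.0 to 48.4) against 32.8% (29.1 to 36.5), and in 47.7% of the midpoints of all divergent pairs. Within 100 bp of a start it was in 40.5% (34.9 to 46.2) against 24.7% (19.3 to 30.8), and these intervals did not overlap. The Ohler 6 motif was in 11 members, 2.48%, and in 2 single-gene peaks, 0.311%, against 2.29% of the midpoints of all divergent pairs and 1.67% of all starts. The M1BP motif was in 1.80% and 2.80%, against 2.98% of those midpoints and 3.94% of all starts. Mean GC content was 37.2% ± 6.36 (SD, n = 444 windows) at members and 38.9% ± 7.21 (n = 644) at single-gene peaks. In 3 bins of GC content (below 35%, 35 to 40% and above) the DRE share of members was the higher in each, at 12.02%, 9.23% and 17.6% against 3.74%, 5.39% and 8.37%. The intervals did not overlap in the lowest bin, 7.69 to 17.6 against 1.63 to 7.23, and overlapped in the other two. In the same 3 bins the TATA box share was 55.7%, 50% and 20.6% of members against 51.9%, 37.7% and 14.1%, with overlapping intervals in each. What distance to a start and GC content contribute to the motif shares was not tested beyond these values.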

How the data were processed

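Binding of emc-eGFP was measured in 2 whole-embryo ChIP samples, with chromatin sonicated to 200 to 800 bp per the labels. The authors deposited narrowPeak lists on dm6, each with a signal per peak and a −log10 q-value, which broke ties in rank. Per the listing deposited with the samples, both replicate lists (30000 peaks each) used 1 control alignment and, with the pooled list (29400), were input for IDR. No caller, setting or read count is given in the sources used here, so the depth is unknown. The dm3 lists were not used.

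Summits were placed against 19607 starts of 13945 protein-coding genes (Ensembl release 115, annotation 6.54), and sequence was read from the RefSeq Release 6 assembly. The nearest pair, its orientation and spacing, densities and motifs followed from position. Shares have Clopper-Pearson intervals, medians order-statistic intervals and ratios exact conditional binomial intervals. The members and lists were chosen with earlier results of these data known. Named pairs were the 12 strongest members, the strongest of each orientation and list, extremes of spacing, replicate rank and the 500 bp rule, and pairs with 2 members. One pair that this rule names is not reported here. Sequences with over 30 bases of exon were left out, and 5 of 8 eligible are shown. Bins of distance, spacing, rank and GC content, the limit of 100 bp and the nearer start were added after seeing the data; rank bins replaced quartiles of pooled rank. The labels name 2 biosamples of 1 line as biological replicates and do not describe their collection, so the spread between them may be technical. The steps were tested on simulated data. Scripts ran on matplotlib 3.10.9, scipy 1.17.1, pandas 2.3.3, numpy 2.4.6 and Python 3.11.15.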

Additional observations from a re-analysis of the deposited data

How the results depend on the processing

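Of 71 values under alternatives, 44 stayed near the main value and 27 moved. Near meant within its interval or the spread between replicates or, for gene-list counts, within a fixed factor of it. The density ratio was above 1 in all 7 alternatives. It was 5.47 within 250 bp, 3.11 within 1000 bp and 4.09 with non-coding partners. Members were 15.6% of peaks within 250 bp, 30.6% within 1000 bp and 21.8% with one start per gene; the divergent share was 87.7% with one start per gene and 88.8% with non-coding partners. Genes with a divergent partner were occupied in 17.7% with one start per gene and 10.3% with peaks of above-median signal alone, and in 18.4% to 19.3% with either replicate left out. Genes with no partner had 4.77%, 4.37%, 6.76% and 3.00% with one start per gene, 250 bp, 1000 bp and the stronger peaks. The passing share of pooled paired peaks was 33.3% within 250 bp and 16.9% within 1000 bp. Presence in both replicates was 100% among the stronger peaks, where mitochondrial ribosomal protein and oxidative phosphorylation genes had 6 and 8 members. The ratio of median signals, 0.982, crossed 1 with one start per gene (1.004), 250 bp (1.03), the stronger peaks (1.002) and within 100 bp of a start (1.13). It was 0.963 within 1000 bp and 0.977 to 0.997 with either replicate left out. The ratio of DRE shares, 2.12, fell to 1.30 (0.801 to 2.16) within 100 bp of a start; in windows of 50 bp on each side it was 1.45 (0.819 to 2.57). The causes were not tested. With the depth unknown, precision is limited by the number of peaks. No paired analysis was possible because there is 1 group.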
